A study of Mus musculus with 21 samples.

Results

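The 9 genes described here mark GABAergic interneurons, the inhibitory nerve cells of the cortex. They were chosen by symbol from a table of 24984 genes: Gad1, Gad2 and Slc32a1, which make and package the transmitter GABA, the transcription factors Lhx6 and Dlx1, the neuropeptides Sst, Vip and Npy, and the calcium buffer Pvalb. BrU-seq, in which bromouridine taken up into newly made RNA allows that RNA to be isolated and sequenced, gave their nascent RNA in primary cultures of CD1 mouse cortex at day 17 in vitro. A preincubation of 30 min held either the solvent DMSO or 25 µM MM401, a compound that blocks the binding of the histone methyltransferase MLL1 to WDR5. They then received 40 µM bicuculline-methiodide, a blocker of GABA-A receptors that raises network activity, or water, and every culture had 2 mM bromouridine for the last 30 min.

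The 7 groups were DMSO with water at 4 h, DMSO with 1 h or 4 h of bicuculline, MM401 with 1 h or 4 h of water, and MM401 with 1 h or 4 h of bicuculline. The 21 samples included no DMSO with water at 1 h, so both bicuculline groups in DMSO were compared with water at 4 h. At 1 h in DMSO, time and treatment therefore differ together, and the 2 DMSO responses share their water libraries. Each group had 3 libraries from biological replicates of mixed sex, but 1 of MM401 with water at 4 h held only 316741 counts against 49886348 to 87939384 in the other 20, and was left out, so that this group has n = 2. The labels do not say what a replicate was drawn from, and the p-values measure the spread between these libraries. The libraries come from whole cultures, in which fewer cells of a type and less RNA per cell cannot be told apart.

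GABA is made from glutamate by the glutamate decarboxylases GAD67 (Gad1) and GAD65 (Gad2), and the transporter VGAT (Slc32a1) loads it into synaptic vesicles. Cortical interneurons arise from the ganglionic eminences, where Dlx factors act early and Lhx6 marks cells of medial origin, and they mature into classes that are told apart by parvalbumin, somatostatin, VIP and other products. GAD67 provides most of the basal GABA of the cell, whereas GAD65 is concentrated at nerve terminals, and several neuropeptide genes are known targets of activity-dependent factors such as CREB.

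The genes lie on 5 chromosomes of mouse build mm10, with 5 of the 9 on chromosome 2. There, Gad1 spans 70562128 to 70602014, Gad2 spans 22622326 to 22693877, Slc32a1 spans 158610757 to 158615747 and Dlx1 spans 71529444 to 71533981, and Lhx6 spans 36081952 to 36105408 on the minus strand. Pvalb lies on chromosome 15 (78191111 to 78206400, minus strand), Sst on chromosome 16 (23889580 to 23890844, minus strand), Vip on chromosome 10 (5639217 to 5647616) and Npy on chromosome 6 (49822709 to 49829505). Positions are as the deposited table gives them, and for Gad1, Gad2, Vip and Npy its start is 1 base below the RefSeq start from which the promoter stretches are counted. Counts were taken over the whole span of each gene, introns included.

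Promoter stretches are shown for both Gad genes and the 3 neuropeptide genes, the members whose time courses under bicuculline are compared. RefSeq (GRCm38.p6) held promoters for all 9 members by symbol, with 12 starts, and 7 members had 1 start. Each line gives the 150 bases before the start, 5′ to 3′ on the strand of the gene. Capitals mark matches on either strand to the cyclic AMP response element (CRE, TGACGTCA), its short form (TGACG), the AP-1 motif (TGANTCA) or the TATA box (TATAAA). The stretches are chr16:23890845-23890994 for Sst (minus strand), chr10:5639068-5639217 for Vip, chr2:22622177-22622326 for Gad2, chr2:70561979-70562128 for Gad1 and chr6:49822560-49822709 for Npy.
Sst: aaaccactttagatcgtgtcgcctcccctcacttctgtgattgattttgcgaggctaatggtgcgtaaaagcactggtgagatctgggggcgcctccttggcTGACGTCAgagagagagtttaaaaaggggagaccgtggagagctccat
Vip: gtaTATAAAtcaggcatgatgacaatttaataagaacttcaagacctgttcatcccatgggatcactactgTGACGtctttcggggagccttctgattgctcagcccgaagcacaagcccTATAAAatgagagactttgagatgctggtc
Gad2: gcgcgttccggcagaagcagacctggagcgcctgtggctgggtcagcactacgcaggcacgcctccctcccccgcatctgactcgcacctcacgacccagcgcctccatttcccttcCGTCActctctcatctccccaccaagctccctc
Gad1: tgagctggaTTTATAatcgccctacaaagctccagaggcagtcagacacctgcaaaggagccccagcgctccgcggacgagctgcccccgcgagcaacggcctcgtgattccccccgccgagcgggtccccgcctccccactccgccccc
Npy: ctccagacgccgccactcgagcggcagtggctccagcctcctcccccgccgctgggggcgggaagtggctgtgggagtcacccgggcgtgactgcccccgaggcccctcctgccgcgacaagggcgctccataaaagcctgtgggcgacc

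Sst held the full CRE, beginning 48 bases before its start, which 1.55% of 32851 RefSeq promoters of the same 250 searched bases also held. The short form, which is part of the full CRE, was found in 17.8% of promoters and among the members in Sst, Vip and Gad2, beginning 79 bases before the start in Vip and 33 in Gad2. TATAAA was found in 12.4% of promoters and among the members in Vip and Gad1. In Vip 1 of the matches begins 30 bases before the start. In Gad1 the match lies on the opposite strand and begins 141 bases before the start. The AP-1 motif, in 6.75% of promoters, occurred among the members only before the first start of Lhx6, and the EGR motif (GCGTGGGCG), in 0.536% of promoters, was in none of the 12 stretches. Npy held none of these letters in this window. These matches are a description of the sequence, and binding was not measured.

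Of the 9 members, 8 passed the filter on low counts and were tested. Dlx1 was listed at 0 in all 21 libraries, as was its same-strand neighbour Metap1d, a gene in wide use, and no level was read from these entries. Its antisense partner Dlx1as, which overlaps Dlx1 by 3345 bases on the opposite strand, did carry counts. Dlx1as was at 13.1 ± 0.344 CPM (SD, n = 3) in DMSO with water and at 17.4 ± 1.27 with bicuculline at 1 h, and it rose by 0.40 ± 0.080 on the log2 scale (SE, edgeR adjusted p = 0.000308). With MM401 it went from 11.0 ± 0.370 in water at 1 h to 19.5 ± 1.03 CPM with bicuculline at 1 h, a rise of 0.83 ± 0.081 (edgeR adjusted p = 3.57e-08). At 4 h of bicuculline Dlx1as stood at 13.8 ± 1.74 CPM in DMSO, 0.077 ± 0.080 above water on the log2 scale and not called (edgeR adjusted p = 0.453). In MM401 it was at 11.4 ± 0.141 CPM in water at 4 h (n = 2) and at 13.9 ± 0.162 with bicuculline, a rise of 0.28 ± 0.092 (edgeR adjusted p = 0.0155). CPM are each library's counts after division by its TMM-scaled size, as edgeR gives them. Use of strand in the counting is not given in the sources used here, so reads of Dlx1 and Dlx1as cannot be told apart.

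Per length of gene, Sst had the highest level in every group, followed by Gad1 and then Gad2, and the libraries of these 3 did not overlap within any group. In DMSO with water the levels in RPKM (CPM per kilobase of gene span) were 9.29 ± 3.97 for Sst (SD, n = 3), 3.73 ± 0.0771 for Gad1 and 2.43 ± 0.0942 for Gad2. Npy at 1.64 ± 0.447 and Vip at 1.44 ± 0.227 overlapped, Slc32a1 stood at 0.984 ± 0.142 and Lhx6 at 0.321 ± 0.0190. Pvalb was lowest at 0.0171 ± 0.00511 RPKM and had 6 to 30 counts a library. The order changed in the middle of the list: in MM401 with water at 1 h Vip and Npy were level (1.197 and 1.194 RPKM, overlapping), with bicuculline at 1 h Vip stood ahead of Npy, without overlap in DMSO and with overlap in MM401, and with bicuculline at 4 h Vip overlapped both Npy and Slc32a1.

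**Figure D1:**
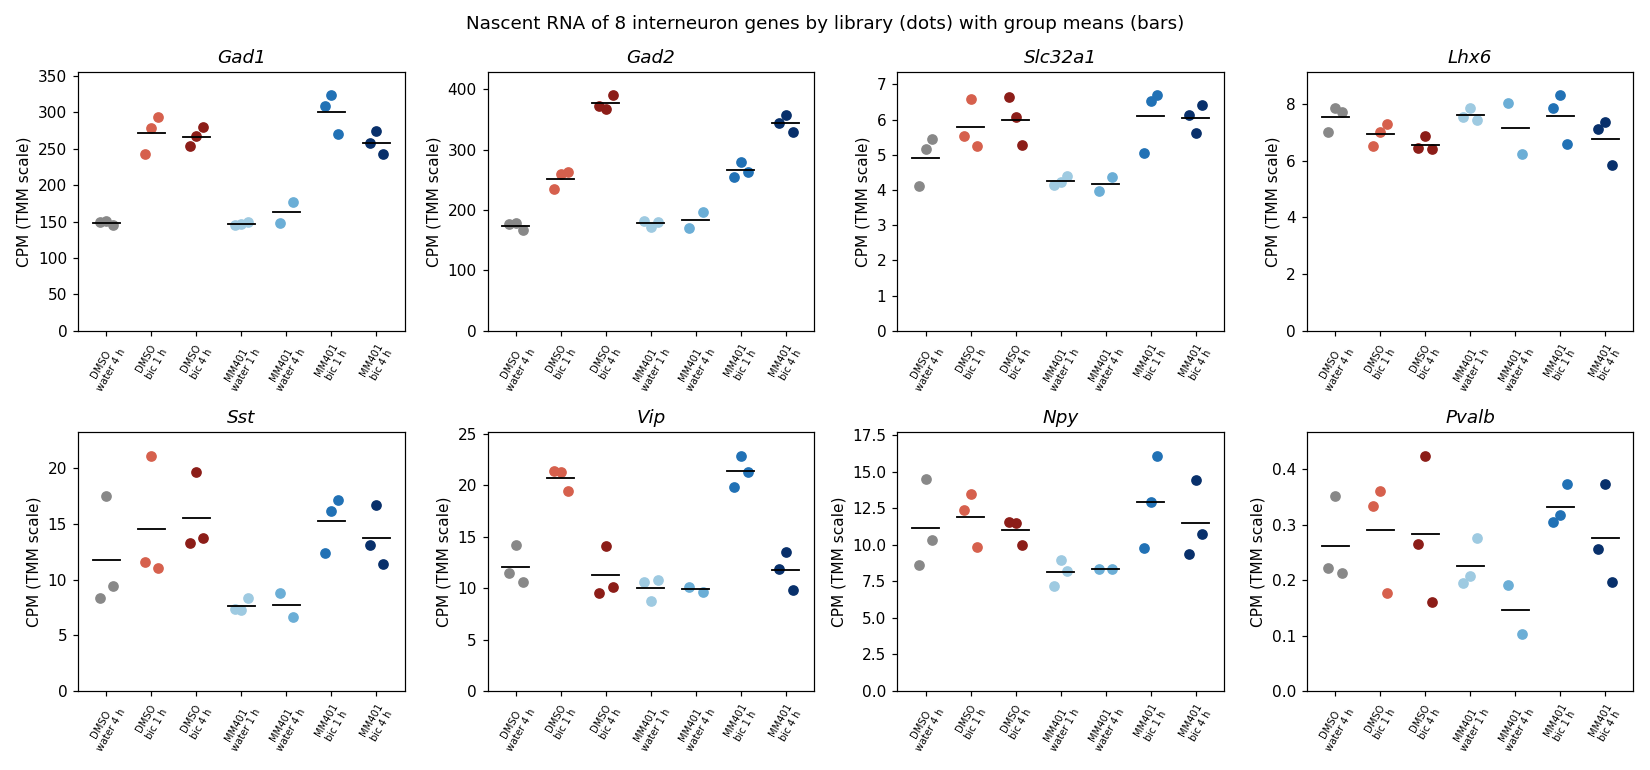
Nascent RNA of the 8 members with counts, in CPM on the TMM scale (vertical axes, linear and starting at 0), for each of the 20 libraries (dots) with the group mean (bars). Gad1 and Gad2 are higher in all 12 bicuculline libraries than in all 8 water libraries, Vip is high with bicuculline at 1 h, and Lhx6 stays between 5.85 and 8.30 CPM throughout.

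Bicuculline raised several of the members and lowered none in the 4 comparisons with water on the TMM scale. A gene was called where its edgeR p-value, adjusted over all 16959 genes tested, was under 0.05. In DMSO at 1 h, Gad1, Gad2 and Vip rose, 3 of 8 members tested, where 20% of all genes tested rose and 24.5% fell. In DMSO at 4 h, Gad1 and Gad2 rose (2 of 8, against 23.7% of all genes higher and 25.5% lower). In MM401 at 1 h, Gad1, Gad2, Slc32a1, Sst, Vip and Npy rose (6 of 8, against 18.1% higher and 21.8% lower), and in MM401 at 4 h Gad1, Gad2 and Slc32a1 rose (3 of 8, against 23.0% higher and 21.7% lower). The median log2 fold change of the 8 members was 0.27, 0.18, 0.63 and 0.60 in the same order, and that of all genes tested was -0.038, -0.024, -0.0018 and 0.016. The share of members that rose in DMSO at 4 h was close to the share of all genes that rose. With plain library sizes in place of TMM, Slc32a1, Sst and Npy were not called in MM401 at 1 h (edgeR adjusted p from 0.0522 to 0.106), and Lhx6 fell in DMSO by 0.32 at 1 h and by 0.48 at 4 h and Vip by 0.38 at 4 h on the log2 scale.

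**Figure D2:**
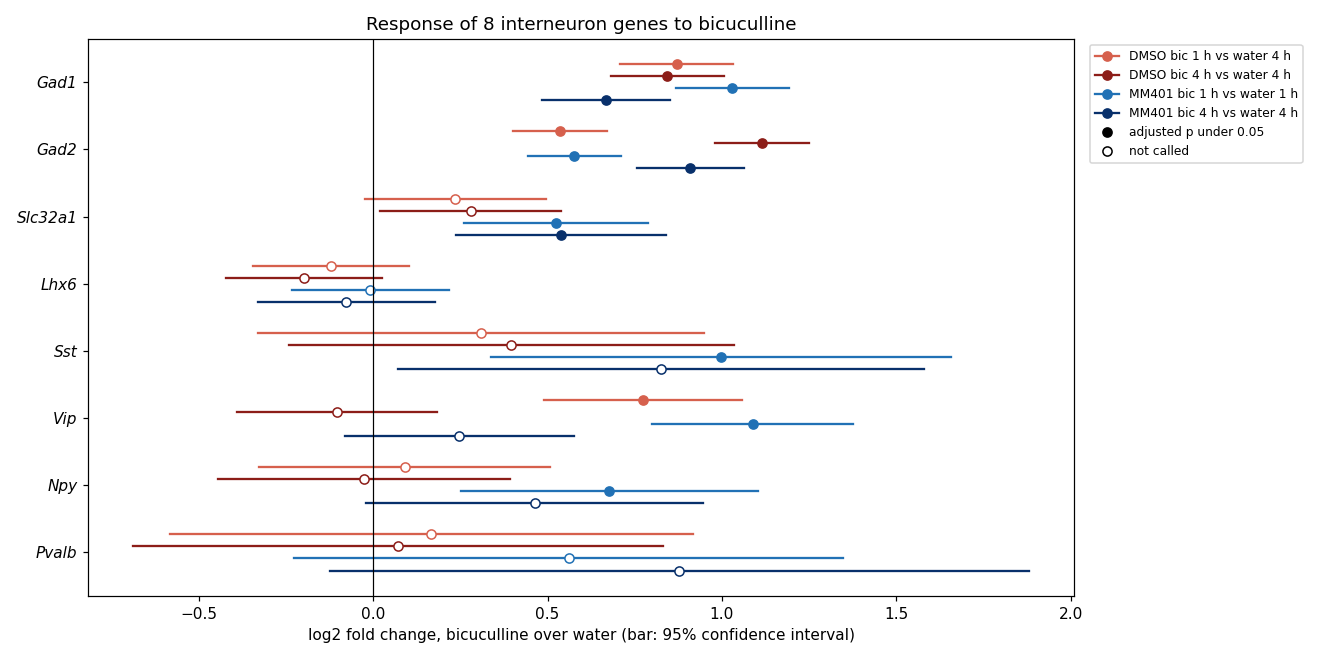
Log2 fold change of bicuculline over water for the 8 members (horizontal axis), with 95% confidence intervals as bars; filled points have an edgeR adjusted p under 0.05 and open points do not. Gad1 and Gad2 are filled in all 4 comparisons, Lhx6 and Pvalb in none, and Vip only at 1 h.

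Gad1 about doubled by 1 h and did not rise further by 4 h. It was at 150, 151 and 145 CPM in the 3 libraries of DMSO with water, at 243, 278 and 294 with bicuculline at 1 h and at 253, 267 and 279 at 4 h. With MM401 it was at 145, 147 and 150 CPM in water at 1 h, 148 and 177 in water at 4 h, 309, 323 and 270 after 1 h of bicuculline and 258, 274 and 242 after 4 h. All bicuculline libraries lie above all water libraries, and the 2 times of bicuculline overlap in DMSO and in MM401. The log2 fold changes over water in DMSO were 0.87 ± 0.078 at 1 h (SE, edgeR adjusted p = 1.04e-08) and 0.84 ± 0.078 at 4 h (1.01e-08). In MM401 they were 1.03 ± 0.079 at 1 h (7.32e-10) and 0.67 ± 0.089 at 4 h (3.01e-06).

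Gad2 rose less than Gad1 at 1 h and went on rising to 4 h. The DMSO libraries held 177, 179 and 166 CPM with water, 234, 259 and 263 with bicuculline at 1 h and 373, 368 and 390 at 4 h. In MM401 the values were 181, 172 and 181 CPM in water at 1 h, 170 and 196 in water at 4 h, 254, 280 and 262 after 1 h of bicuculline and 344, 357 and 330 after 4 h. Water, 1 h and 4 h of bicuculline formed 3 steps without overlap in both pretreatments. Against water, the log2 fold change in DMSO was 0.54 ± 0.064 at 1 h (edgeR adjusted p = 7.61e-07) and 1.12 ± 0.065 at 4 h (8.19e-12), and in MM401 it was 0.58 ± 0.065 (2.85e-07) and 0.91 ± 0.074 (3.38e-09).

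Bicuculline at 4 h was also compared with bicuculline at 1 h. In DMSO Gad2 rose and Vip fell, 1 of 8 members in each direction, where 19.1% of all genes were higher and 15.2% lower. In MM401 Gad2 rose and Gad1 and Vip fell (1 and 2 of 8, against 17.5% higher and 16.0% lower). The shares of 1 in 8 members were near those of all genes, and the values that follow describe the single genes. For Gad2 the log2 change from 1 h to 4 h was 0.58 ± 0.064 in DMSO (edgeR adjusted p = 3.23e-07) and 0.37 ± 0.064 in MM401 (9.93e-05). For Gad1 it was -0.027 ± 0.078 in DMSO (0.83) and -0.22 ± 0.078 in MM401 (0.0313). The Gad1 call in MM401 was lost in 4 of 6 fits that each left out 1 library, without replicate 1 or 2 of bicuculline at 1 h (-0.20 and -0.17) or replicate 1 or 3 at 4 h (-0.22 and -0.18, edgeR adjusted p from 0.0716 to 0.158 over the 4 fits), and with plain library sizes (-0.14, 0.107) or all 21 libraries (-0.25, 0.436).

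The ratio of Gad1 to Gad2 within a library, which does not depend on how libraries are scaled, followed the same course. In RPKM it was 1.53 ± 0.0288 in DMSO with water (SD, n = 3), 1.93 ± 0.0729 with bicuculline at 1 h and 1.27 ± 0.0437 at 4 h. With MM401 it was 1.49 ± 0.0466 in water at 1 h, 1.59 ± 0.0342 in water at 4 h (n = 2), 2.03 ± 0.168 with bicuculline at 1 h and 1.35 ± 0.0280 at 4 h. In both pretreatments every library at 1 h lay above, and every library at 4 h below, all water libraries. Each of these differences had an exact two-sided permutation p of 0.1, the smallest that 3 libraries against 3, or 3 against 2, can give here, so no such test can pass 0.05. Between MM401 and DMSO the exact permutation p was 0.2 in water at 4 h, 0.5 with bicuculline at 1 h and 0.1 at 4 h.

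**Figure D3:**
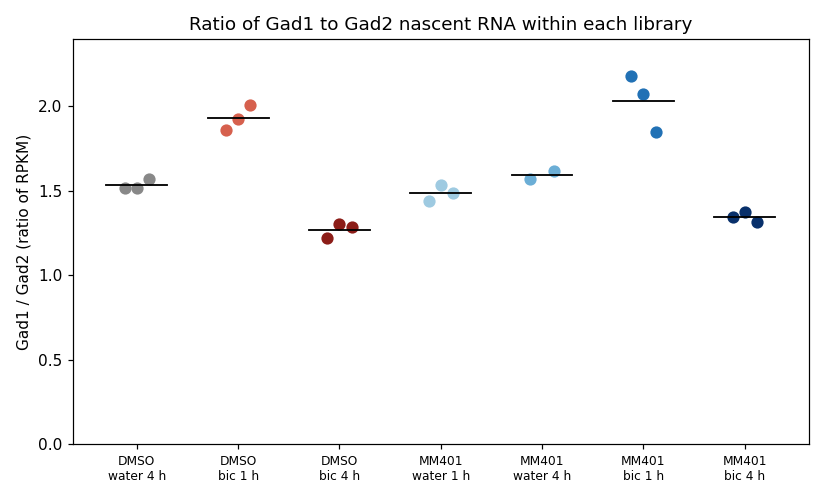
Ratio of Gad1 to Gad2 (RPKM over RPKM, vertical axis from 0) in each of the 20 libraries (dots), with group means (bars). The ratio is 1.85 to 2.18 in the 6 libraries with bicuculline at 1 h and 1.22 to 1.37 in the 6 at 4 h, with the 8 water libraries between.

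Gad1os, a transcript on the opposite strand, overlaps the 5′ end of Gad1 by 1230 bases, and reads there could count for either gene. It was far lower than Gad1, at 6.25 ± 0.409 CPM in DMSO with water (SD, n = 3) and 9.75 ± 1.14 with bicuculline at 1 h. Gad2 contains Mir3967, a microRNA gene of 69 bases on the same strand.

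Slc32a1, the vesicular GABA transporter, was a smaller and less certain riser. In CPM its DMSO libraries were at 4.11, 5.16 and 5.46 with water, 5.54, 6.58 and 5.24 with bicuculline at 1 h and 6.63, 6.07 and 5.29 at 4 h, and both times overlap water. In MM401 it was at 4.14, 4.23 and 4.39 CPM in water at 1 h, 3.97 and 4.37 in water at 4 h, 5.06, 6.53 and 6.69 after 1 h of bicuculline and 6.12, 5.63 and 6.41 after 4 h, without overlap between bicuculline and water of the same time. The log2 fold changes in MM401 were 0.52 ± 0.13 (edgeR adjusted p = 0.00224) and 0.54 ± 0.15 (0.00449), and in DMSO they were 0.24 ± 0.13 (0.134) and 0.28 ± 0.13 (0.069). The call in MM401 at 4 h was lost without replicate 1 of its water group (0.47, edgeR adjusted p = 0.0604), and a call in DMSO at 4 h was gained without replicate 3 of bicuculline (0.37, 0.034) or by DESeq2 (0.30, 0.0355).

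Vip, which encodes vasoactive intestinal peptide, rose at 1 h, and at 4 h it was not called against water. In DMSO it was at 11.4, 14.3 and 10.6 CPM with water, 21.4, 21.3 and 19.5 with bicuculline at 1 h and 9.59, 14.1 and 10.2 at 4 h. In MM401 it was at 10.6, 8.74 and 10.8 CPM in water at 1 h, 10.1 and 9.66 in water at 4 h, 19.8, 22.9 and 21.3 after 1 h of bicuculline and 11.9, 13.5 and 9.87 after 4 h. The 6 libraries at 1 h of bicuculline lie above all other 14. The log2 fold change at 1 h was 0.77 ± 0.14 in DMSO (edgeR adjusted p = 0.000117) and 1.09 ± 0.14 in MM401 (3.27e-06), and at 4 h it was -0.10 ± 0.14 (0.569) and 0.25 ± 0.16 (0.215). From 1 h to 4 h Vip fell by 0.88 in DMSO (edgeR adjusted p = 4.02e-05) and by 0.86 in MM401 (5.58e-05) on the log2 scale.

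Sst, which encodes somatostatin, was called in MM401 at 1 h on the main settings, and its DMSO libraries were widely spread. They were at 8.33, 17.5 and 9.41 CPM with water, 11.6, 21.1 and 11.0 with bicuculline at 1 h and 13.3, 19.7 and 13.8 at 4 h, and replicate 2 was the highest in each of these groups. In MM401 the values were 7.37, 7.24 and 8.35 CPM in water at 1 h, 8.80 and 6.67 in water at 4 h, 12.4, 16.2 and 17.2 after 1 h of bicuculline and 13.1, 16.7 and 11.4 after 4 h, without overlap between bicuculline and water. The log2 fold change in MM401 was 1.00 ± 0.31 at 1 h (edgeR adjusted p = 0.0182) and 0.83 ± 0.35 at 4 h (0.0703), and in DMSO it was 0.31 ± 0.30 (0.43) and 0.40 ± 0.30 (0.297). At 4 h in MM401 it was also called by DESeq2 (0.82, adjusted p = 0.0436) and by edgeR on only the groups compared (0.80, 0.00639). Without replicate 2 of DMSO with water it was called in DMSO too, with 0.75 at 1 h (edgeR adjusted p = 0.0436) and 0.79 at 4 h (0.0283). Over the fits that left out 1 library the value in DMSO ran from -0.067 to 0.75 at 1 h, the lowest without replicate 2 of bicuculline, and from 0.19 to 0.79 at 4 h. The call in MM401 at 1 h was lost in 4 of 6 fits that left out 1 library, namely replicate 2 or 3 of bicuculline or replicate 1 or 2 of water (0.91 to 0.97, edgeR adjusted p from 0.0519 to 0.0581).

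Npy, which encodes neuropeptide Y, had overlapping libraries in all 3 DMSO groups. They were at 8.64, 14.5 and 10.3 CPM with water, 12.4, 13.5 and 9.83 with bicuculline at 1 h and 11.6, 11.5 and 10.01 at 4 h. In MM401 it was at 7.20, 8.96 and 8.19 CPM in water at 1 h, 8.35 and 8.34 in water at 4 h, 9.78, 12.9 and 16.1 after 1 h of bicuculline and 9.37, 14.5 and 10.7 after 4 h, and bicuculline did not overlap water of the same time. Its log2 fold change at 1 h was 0.68 ± 0.20 in MM401 (edgeR adjusted p = 0.0128) and 0.090 ± 0.20 in DMSO (0.744), and at 4 h it was 0.46 ± 0.23 (0.112) and -0.027 ± 0.20 (0.926). The call was lost without replicate 3 of bicuculline (0.50, edgeR adjusted p = 0.0703) or replicate 1 of water (0.60, 0.0545), and a call at 4 h was gained on only the groups compared (0.44, 0.0378).

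Lhx6 and Pvalb were not called in any comparison on the TMM scale. Lhx6, a factor that specifies somatostatin and parvalbumin interneurons, was at 7.02, 7.86 and 7.70 CPM in DMSO with water and at 6.51, 6.997 and 7.29 and then 6.44, 6.86 and 6.40 with bicuculline at 1 h and 4 h. The libraries at 4 h were all below those in water, and with plain library sizes Lhx6 was lower in DMSO by edgeR at both times (log2 fold change -0.32, adjusted p = 0.0248, at 1 h and -0.48, adjusted p = 0.0011, at 4 h). In MM401 it was at 7.55, 7.86 and 7.44 CPM in water at 1 h, 8.04 and 6.24 in water at 4 h, 7.86, 8.30 and 6.60 after 1 h of bicuculline and 7.13, 7.35 and 5.85 after 4 h. The 95% confidence interval of its log2 fold change ran from -0.42 to 0.025 for DMSO at 4 h and from -0.23 to 0.22 for MM401 at 1 h. For Pvalb, which encodes parvalbumin, the levels were 0.103 to 0.424 CPM over all libraries, and the interval in MM401 at 4 h ran from -0.12 to 1.88, so that a rise of this size was not resolvable at this depth. In MM401 the Pvalb libraries with bicuculline were all above those in water at 1 h and at 4 h.

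No member was called for MM401 against DMSO. Against DMSO, 0 of 8 members were called by edgeR in water at 4 h and under either time of bicuculline, where 0.0826%, 0.00590% and 0% of all genes were called, and 0 members had an unadjusted p under 0.05 in any of the 3. DESeq2 also called 0 members in each. At the unadjusted p, 2194, 540 and 1309 of all genes passed, and DESeq2 called 166, 13 and 7 genes. Leaving out replicate 1 of DMSO with water raised the edgeR count of genes in water to 1265, none of them a member. The 2 water groups of MM401, 4 h against 1 h, also differed in 0 members by edgeR and by DESeq2 (0 with an unadjusted p under 0.05), against 0.867% of all genes.

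With water at 4 h the neuropeptide genes and Pvalb had negative log2 differences, MM401 minus DMSO, that were not called. They were -0.61 for Sst (95% confidence interval -1.36 to 0.14), -0.43 for Npy (-0.91 to 0.056), -0.29 for Vip (-0.62 to 0.034) and -0.85 for Pvalb (-1.84 to 0.13), with edgeR adjusted p from 0.426 to 0.463. Without replicate 2 of DMSO with water they were -0.19, -0.18, -0.15 and -0.54, and over all fits that left out 1 library Sst ran from -0.83 to -0.19, Npy from -0.58 to -0.18, Vip from -0.38 to -0.15 and Pvalb from -1.35 to -0.48. The last ran to -1.35 without replicate 1 and to -0.48 without replicate 2 of MM401 with water. All 6 astrocyte markers also had negative differences here (median -0.34, 0 called by edgeR, 3 at an unadjusted p under 0.05), and their part was not tested. Libraries of Vip, Npy and Pvalb did not overlap between these 2 groups, and those of Sst did. With 3 libraries against 2, such separation can arise without a difference, and the share of all genes without overlap was not counted. Pvalb had only 11 and 6 counts in the MM401 libraries. With bicuculline the differences between MM401 and DMSO for these 4 genes ran from -0.18 to 0.16, and every one of the 8 comparisons overlapped. Slc32a1 was at -0.24 with water at 4 h (95% confidence interval -0.54 to 0.059, edgeR adjusted p = 0.473), with overlap. Gad2 with bicuculline at 4 h was at 344 CPM in MM401 and 377 in DMSO on average, without overlap, and this log2 difference of -0.13 did not pass (edgeR adjusted p = 0.639) and was -0.023 with plain library sizes.

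An interaction term compared the bicuculline responses of the 2 pretreatments, as the change in MM401 minus that in DMSO. No member was called at 4 h or at 1 h by edgeR, where 0% of all genes were called in each, or by DESeq2, which called 294 and 10 genes. At an unadjusted p under 0.05, 1 member (Gad2 at 4 h) and 2552 of all genes passed at 4 h, and 0 members and 1326 genes at 1 h. For Gad2 at 4 h the difference was -0.21 ± 0.096 (edgeR adjusted p = 0.321). For Sst at 1 h it was 0.67 ± 0.46 (0.76) and for Npy 0.55 ± 0.30 (0.694), with 95% confidence intervals of -0.31 to 1.66 and -0.090 to 1.19, so the calls of these genes in MM401 alone are not shown to be a difference between the pretreatments. Over the fits that left out 1 library the values ran from -0.31 to -0.097 for Gad2 at 4 h, lowest without replicate 1 and highest without replicate 2 of MM401 with water, and none was called. For Sst at 1 h they ran from 0.24 to 1.05 and for Npy at 1 h from 0.28 to 0.71, both lowest without replicate 2 of DMSO with water. With plain library sizes the Gad2 value was -0.0092. At 1 h both responses in this test were taken against water at 4 h. Without replicate 1 of DMSO with water, 1542 genes at 4 h and 97 at 1 h were called, again without a member.

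Other genes linked to interneurons were read from 3 lists. Other cells of these cultures may also express listed genes, and which cells a change came from was not tested. Among interneuron transcription factors more rose than fell. Of 18 tested, 8 rose and 0 fell in DMSO at 1 h, 10 rose and 1 fell in DMSO at 4 h, 11 rose and 0 fell in MM401 at 1 h and 13 rose and 1 fell in MM401 at 4 h. Of all genes 20%, 23.7%, 18.1% and 23.0% rose and 24.5%, 25.5%, 21.8% and 21.7% fell in these comparisons. The median log2 fold changes of the factors were 0.29, 0.28, 0.37 and 0.44. Calls in either direction were 4 in place of 11 in DMSO at 4 h and 5 in place of 11 in MM401 at 1 h with plain library sizes, and 5, 7 and 6 in the first 3 comparisons with all 21 libraries. Sp8, a factor of interneurons of caudal and lateral origin, went from 5.78 ± 1.03 CPM in DMSO with water to 10.7 ± 0.949 with bicuculline at 1 h (SD, n = 3), a log2 change of 0.88 ± 0.12 (SE, edgeR adjusted p = 5.6e-06), and it rose by 1.12 in MM401 at 1 h and by 0.86 at 4 h. Prox1, which acts in interneurons of caudal origin, rose by 0.87 ± 0.087 in DMSO at 4 h and by 0.73 ± 0.099 in MM401 at 4 h. Satb1, which acts in the maturation of somatostatin cells, rose by 0.72 ± 0.056 in DMSO at 4 h, from 152 ± 6.22 to 251 ± 13.4 CPM.

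Dlx6 and Dlx5, relatives of Dlx1, rose as well where they were among the largest changes of the list. Dlx6 rose by 0.54 ± 0.12 in DMSO at 1 h (edgeR adjusted p = 0.000908) and Dlx5 by 0.66 ± 0.12 in MM401 at 1 h (0.000154). Dlx2, a further relative, was added after its values were seen: it was at 3.60 ± 0.564 CPM in DMSO with water and at 3.03 ± 0.327 with bicuculline at 1 h, which was not called (edgeR adjusted p = 0.149), and it rose by 0.40 ± 0.15 in MM401 at 4 h (0.0385). Npas1, a repressor expressed in interneurons, was the one factor that fell, by 0.60 in DMSO at 4 h (edgeR adjusted p = 0.0102) and by 0.90 in MM401 at 4 h (0.00084), at 1.00 to 2.25 CPM on average. Etv1 was the one gene of the 3 lists called between the water groups of MM401, from 44.0 ± 0.515 CPM at 1 h (n = 3) to 54.3 ± 0.268 at 4 h (n = 2).

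Interneuron subtype markers also leaned upward. Of 28 listed, 27 were tested, and 14, 16, 18 and 13 rose while 2, 1, 3 and 1 fell in DMSO at 1 h and 4 h and MM401 at 1 h and 4 h, with medians of 0.32, 0.34, 0.39 and 0.23, beside 20%, 23.7%, 18.1% and 23.0% of all genes higher and 24.5%, 25.5%, 21.8% and 21.7% lower. Calls in either direction went from 16 to 10 in DMSO at 1 h without replicate 2 of bicuculline or replicate 3 of water, from 14 to 8 or 9 in MM401 at 4 h without replicate 1 or 2 of water, and from 17 to 9 in DMSO at 4 h with plain library sizes. The largest increases were those of peptide genes. Crh, which encodes corticotropin-releasing hormone, went from 0.359 ± 0.147 to 3.20 ± 1.42 CPM in DMSO at 1 h, a log2 change of 3.12 ± 0.40 (edgeR adjusted p = 5.81e-06), and changed by 1.77, 2.29 and 1.99 in the other 3 comparisons. Penk, the enkephalin precursor, went from 17.99 ± 3.89 to 89.3 ± 5.55 CPM in DMSO at 1 h, a change of 2.31 ± 0.13 (2.08e-10), with 1.78, 2.37 and 2.15 in the other 3.

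Decreases among the subtype markers were small or concerned low levels. Kcnc1, a fast potassium channel, fell by 0.21 in DMSO at 1 h and by 0.36 in MM401 at 1 h, Cck, the cholecystokinin gene, fell by 0.23 in MM401 at 1 h, and Nos1, the neuronal nitric oxide synthase, fell by 0.29 in MM401 at 4 h. Htr3a, a serotonin receptor of VIP and related cells, fell in DMSO at both times and in MM401 at 1 h (-0.93, -1.08 and -1.06) from at most 0.447 CPM on average, and is named after its values were seen. Kcnc1 rose at 4 h, by 0.35 in DMSO and 0.35 in MM401.

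Genes of GABA uptake, breakdown and chloride balance moved in both directions. Of 8 listed, 7 were tested, and 2, 2, 1 and 1 rose while as many fell in DMSO at 1 h and 4 h and MM401 at 1 h and 4 h, with medians of -0.11, -0.077, -0.050 and -0.019. The 4, 4, 2 and 2 calls stand beside 44.6%, 49.2%, 39.9% and 44.6% of all genes called in either direction. They went to 2 in DMSO at 1 h without replicate 3 of water, to 1 in MM401 at 1 h without replicate 2 of bicuculline or replicate 3 of water, and to 1 in MM401 at 4 h without replicate 1 of water, and plain library sizes gave 4 in MM401 at 1 h. Slc38a1, a glutamine carrier that supplies the substrate for GABA, rose in all 4, by 0.22, 0.34, 0.28 and 0.19. The GABA transporter gene Slc6a11 fell at 4 h, from 55.0 ± 5.48 to 36.2 ± 1.68 CPM in DMSO, a change of -0.60 ± 0.065 (edgeR adjusted p = 1e-07), and by 0.46 in MM401. Aldh5a1, which encodes an enzyme of GABA breakdown, fell by 0.44 in DMSO and 0.24 in MM401 at 1 h. The chloride importer gene Slc12a2 rose by 0.19 and 0.16 in DMSO (edgeR adjusted p = 0.0181 and 0.0354). Its libraries there overlapped those of water, and it was not called in MM401.

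**Figure D4:**
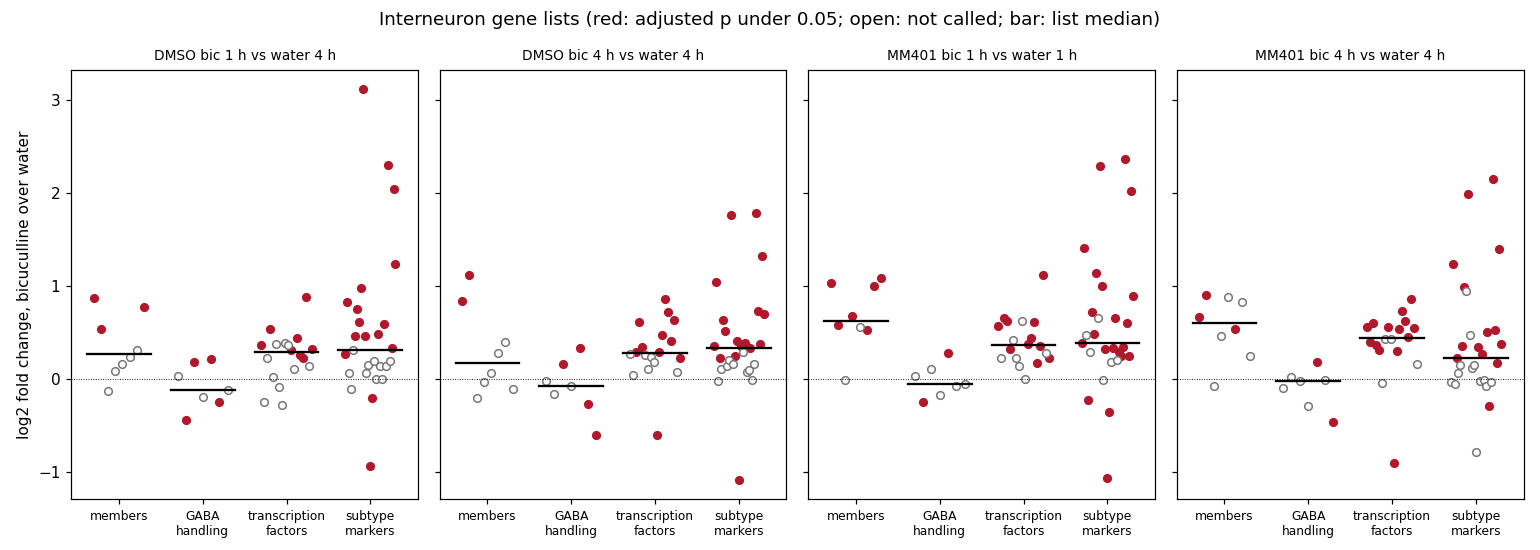
Log2 fold change of bicuculline over water (vertical axis) for each gene tested of the members and of the 3 interneuron lists (points, spread sideways for legibility) in the 4 comparisons; red points have an edgeR adjusted p under 0.05, open points do not, and bars are list medians. The transcription factors and subtype markers lie mostly above 0, the genes of GABA handling lie on both sides of it, and Crh and Penk are the 2 highest points in each panel.

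Markers of other cells were present and some moved with the same comparisons. The summed level of 8 excitatory neuron markers was 503 to 637 CPM in DMSO with water, 712 to 777 with bicuculline at 1 h and 960 to 1064 at 4 h, and in MM401 it was 522 to 565 and 631 to 635 in water at 1 h and 4 h, 687 to 853 after 1 h of bicuculline and 885 to 997 after 4 h. The counts that follow stand beside 20%, 23.7%, 18.1% and 23.0% of all genes tested that rose, and 24.5%, 25.5%, 21.8% and 21.7% that fell, in DMSO at 1 h and 4 h and MM401 at 1 h and 4 h. Of the 8 excitatory markers, 4 rose and 2 fell in DMSO at 1 h, 4 and 2 in DMSO at 4 h, 5 and 2 in MM401 at 1 h and 4 and 1 in MM401 at 4 h. The 6 astrocyte markers summed to 1091 to 1546 CPM in DMSO with water and to 1486 to 1628 and 1273 to 1401 with bicuculline at 1 h and 4 h. In MM401 they summed to 1049 to 1303 and 1062 to 1170 CPM in water, and to 1536 to 1608 and 1265 to 1341 with bicuculline. Of the 6, 2 rose and 1 fell in DMSO at 1 h, 4 rose in MM401 at 1 h and 2 rose in MM401 at 4 h. The 8 markers of striatal projection neurons, which also use GABA, summed to 117 to 130 CPM over the water libraries and to 100.2 to 120 over the bicuculline libraries, with 3 higher and 3 lower in DMSO at 1 h, 4 and 3 in DMSO at 4 h, 3 and 3 in MM401 at 1 h and 5 and 2 in MM401 at 4 h. The 6 oligodendrocyte lineage markers summed to 155 to 178 CPM over the water libraries and 180 to 205 over the bicuculline libraries, and 2, 3, 2 and 2 of them rose in DMSO at 1 h and 4 h and MM401 at 1 h and 4 h, with Mbp at up to 56.8 and Pdgfra at up to 91.2 CPM. The 6 microglial markers, of which 5 were tested, summed to 27.6 to 31.3 CPM in MM401 with water at 4 h and to 39.5 to 44.1 with bicuculline at 4 h, where 4 rose, and 1 rose in DMSO at 4 h, with Cx3cr1 at up to 18.4 CPM. Of the defining markers of these lists, Cldn5 of endothelium (at most 0.0449 CPM), Tmem119 of microglia (0.177) and Mog of oligodendrocytes (0.206) were near 0, while Tek, Pecam1 and Flt1 of endothelium reached 1.22, 1.56 and 1.59 CPM and the 4 endothelial markers summed to 2.35 to 3.89 CPM over all libraries. The part of these cells in the changes of the members and of the 3 interneuron lists was not tested.

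Genes whose log2 CPM closely followed each member over the 20 libraries are given as a description, since the libraries share the groups. For Gad1 they were Apmap, Rnf217 and Frmd6 (Pearson r = 0.991, 0.989 and 0.988) and for Gad2 they were Tes, Zfc3h1 and Slk (0.990, 0.990 and 0.989). Vip went with Dbpht2, Ywhaz and Egr4 (0.937, 0.936 and 0.927), Sst with Mdh1, Fth1 and Zcchc12 (0.946, 0.937 and 0.930) and Npy with Mdh1 and Pdha1 (0.890 and 0.864). Slc32a1 went with Ntsr2, Atf4 and Lrrtm1 (0.931, 0.916 and 0.910), Lhx6 with Tmem145, Necab2 and Dpp7 (0.768, 0.761 and 0.714) and Pvalb with Cetn3, Slc22a3 and Tmsb4x (0.814, 0.789 and 0.788). Among the members themselves the highest values were those of Sst with Npy (0.848) and Gad1 with Gad2 (0.842), and Lhx6 ran against Gad2 (-0.48).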

How the data were processed

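Whole-gene read counts were used as the authors deposited them, not normalized, in 1 table of 24984 genes on mouse build mm10; per the file headers the table is featureCounts output. The submitters' processing notes name Bowtie2, featureCounts, UMI-tools, deepTools and DESeq2, with no version. Use of strand and the treatment of duplicates are not given in the sources used here. Here, 20 libraries entered 1 edgeR 4.0.16 quasi-likelihood fit (R 4.3.3, limma 3.58.1) with 7 group means, after filterByExpr (minimum count 10, minimum total 15), which kept 16959 genes, and TMM scaling. P-values were Benjamini-Hochberg adjusted over all genes tested, in 12 comparisons, with a threshold of 0.05. Replicates differed beyond sampling noise in every pair (chi-square per degree of freedom 6.14 to 78.5). The common biological coefficient of variation was 8.77%. Data were simulated for bicuculline at 4 h in DMSO (16959 genes). Of genes raised by a log2 change of 1 and of 0.5, 50 of 50 and 39 of 50 were recovered. Of genes lowered by as much, 48 of 50 and 36 of 50 were recovered, with 10 false calls in the run. The changed genes were few, averaged above 1 CPM and moved equally up and down. The run therefore does not test the scaling or genes near the floor. Counting error is larger for genes of few counts, such as Pvalb (6 to 30 a library) and Htr3a (8 to 43).

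The members and lists were chosen with earlier results of these data known. Named from each interneuron list were up to 2 genes in each direction and comparison with the largest called change, where the higher group averaged 0.5 CPM or more, and for each member tested the 3 genes of at least 1 CPM most like it. Of the genes so chosen, 2 are not reported here. Unnamed predicted, Rik, microRNA, snoRNA and LOC genes were left out of the genes like a member. Alternatives were all 21 libraries, plain library size, no filter, DESeq2 1.42.0, only the groups compared, a replicate block and leaving out each library.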

Additional observations from a re-analysis of the deposited data

How the results depend on the processing

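Gad1 and Gad2 were called in all 4 comparisons of bicuculline with water under every alternative run, and Vip was called at 1 h in DMSO and MM401 under each. Plain library size, which shifted the median log2 change of all genes by -0.19, -0.28, -0.21 and -0.074 (DMSO 1 h and 4 h, MM401 1 h and 4 h), called 4 members in DMSO at 4 h, where the TMM fit called 2, with Lhx6 (-0.48, adjusted p = 0.0011) and Vip (-0.38, 0.0221) lower, and Lhx6 lower at 1 h (-0.32, 0.0248). In MM401 at 1 h it called 3 in place of 6, without Slc32a1 (0.31, 0.106), Sst (0.79, 0.0522) and Npy (0.47, 0.0971). Genes higher and lower were then 1836 and 6818, 1820 and 7867, 1276 and 6541, and 2794 and 4138, against 3396 and 4161, 4014 and 4330, 3070 and 3699, and 3898 and 3674 by TMM. It called 4 transcription factors and 9 subtype markers in DMSO at 4 h, and 5 transcription factors and 4 genes of GABA handling in MM401 at 1 h.

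Fitting only the groups compared called 5 members in MM401 at 4 h in place of 3, adding Sst (0.80, 0.00639) and Npy (0.44, 0.0378). DESeq2 added Sst there (0.82, 0.0436) and Slc32a1 in DMSO at 4 h (0.30, 0.0355). With all 21 libraries, Gad1 was not called for 4 h against 1 h in MM401 (-0.25, 0.436), transcription factors called were 5, 7 and 6 in the first 3 comparisons, genes of GABA handling 2 in DMSO at 1 h, and genes called between 4 h and 1 h of bicuculline 3745 and 3646. Leaving out 1 library gave 3 to 4, 2 to 3, 4 to 6 and 2 to 3 members called against water, 2 to 2 and 2 to 3 for 4 h against 1 h, and 0 for the rest.

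Replicate numbers were not taken to pair the libraries, since no label ties a number to a litter, batch or day. The sample titles do number the libraries consecutively within each replicate number, and what this order stands for is not given. Correlations of same-numbered deviations ran from -0.205 to 0.254 (median 0.0859), and 20 of 57 were over 0.1. None of the 7 compared pairs of groups that share 3 numbers had all 3 over 0.1. Of all 15 pairs sharing 3 numbers, 1 did, DMSO with water at 4 h and MM401 with water at 1 h (0.110 to 0.254), which were not compared. With the replicate block the genes higher and lower against water were 3617 and 4418, 4224 and 4558, 3361 and 3930, and 4033 and 3859, more than without it in each direction. Members called with the block were 3, 2, 6 and 4 against water, Sst in MM401 at 4 h being added (0.84, adjusted p = 0.0302), and 4 genes in place of 1 were called with the block for MM401 against DMSO with bicuculline at 1 h. No member fold change that was called turned its sign under any alternative. Depth limits Pvalb (6 to 30 counts a library) and, among the subtype markers, Htr3a (8 to 43) and Crh in water (11 to 45).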
